A study of Mus musculus with 18 samples.

Results

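The TRIM (tripartite motif) family was examined in RNA sequencing of mouse eosinophils. Members were all rows of the deposited gene table whose Ensembl identifier belongs to a protein-coding mouse gene with a symbol of the form Trim and a number, which gave 68 members among 54446 genes. All 18 libraries came from peritoneal eosinophils of Il5Tg mice (recorded strain C57BL/6), which carry an interleukin-5 transgene expressed in T cells and therefore have a large excess of eosinophils. In every library, the unstimulated groups included, the eosinophils had been cultured with apoptotic cells (ACs), which were wild type thymocytes killed with dexamethasone, and were then purified again with beads against Siglec-F. In the first experiment, named Type 1 here, 3 libraries had no stimulus beside the ACs, 3 received E. coli, 3 received IFN-γ and 3 received IFN-γ and then E. coli (IFN-γ + E. coli + ACs). A separate experiment compared 3 libraries with ACs alone and 3 with IL-4 + ACs. The age of the Il5Tg mice was not given in the sources used here, and eosinophils without ACs were not analysed here. The study describes the 3 libraries of a group as biological replicates.

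TRIM proteins carry, in most members, a RING domain that transfers ubiquitin, followed by B-box and coiled-coil domains and a C-terminal domain that binds the target. Many act on innate immune signalling: they attach ubiquitin to nucleic acid sensors, to adaptors such as STING and MAVS, or to the kinase complexes that activate NF-κB and interferon regulatory factors, and some restrict viruses directly. A number of TRIM genes are known interferon-stimulated genes.

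The members were first searched for the short DNA elements through which interferons and IL-4 are known to act, since the groups differ in IFN-γ and IL-4. A RefSeq promoter window (build GRCm38.p6, 300 bases around a start site) was matched for 53 of the 68 members and for all 10 members whose transcript changed. The core of the interferon-stimulated response element, GAAA, any 2 bases and GAAA, was searched on both strands (TTTC, 2 bases and TTTC when read on the other strand) and was present in 3.44% of the 32851 windows and in 3.99% of the 27025 genes with a window. It was present in 9 of the 53 matched members, of which 4 were among the 10 whose transcript changed. The sites shown are those of the members that changed and of their closest relatives on chromosome 7, each as 30 bases on the strand of the gene with the matched letters in capitals.
Trim21, chr7:102565447-102565476: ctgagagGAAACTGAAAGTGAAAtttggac
Trim12a, chr7:104315466-104315495: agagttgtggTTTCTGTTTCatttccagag
Trim12c, chr7:104353359-104353388: agagttgtggTTTCTGTTTCatttccagct
Trim5, chr7:104288136-104288165: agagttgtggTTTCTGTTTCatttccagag
Trim30a, chr7:104465210-104465239: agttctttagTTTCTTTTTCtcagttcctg
Trim30d, chr7:104507871-104507900: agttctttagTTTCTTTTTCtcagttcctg
Trim34a, chr7:104244457-104244486: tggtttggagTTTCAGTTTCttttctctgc
In Trim21 the capitals cover 2 overlapping matches. The printed bases of Trim12a and Trim5 were identical, and so were those of Trim30a and Trim30d. The element with TTC and GAA and 4 bases between them, which reads the same on both strands and is known for STAT6, the factor that IL-4 activates, was present in 6.95% of windows, 8.01% of genes and 8 of the 53 members, and in 0 of the 10 that changed. Those 10 changed with E. coli, IFN-γ or both, and none was called with IL-4. With so few members, 0 cannot be told apart from the share of all genes. The matches of both elements describe the letters in the windows and say nothing about binding in these cells.

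Depth lay between 2216917 and 5078760 reads per library in the Type 1 experiment. In the IL-4 experiment it lay between 5294244 and 7782072 in 4 libraries, while replicate 3 of each group held 849705 (IL-4 + ACs) and 779421 reads (ACs). In those shallow libraries 3 reads correspond to 15.4 and 16.1 normalized counts, so a member read 0 times there may still be expressed up to that level, counting error only. None of the 8 eosinophil markers was at 0 in any group, but their sum moved with the groups: it was 7598 to 7997 normalized counts with ACs alone, 8648 to 9832 with E. coli, 4856 to 5678 with IFN-γ and 6942 to 8312 with both stimuli, and in the IL-4 experiment 9248 to 12339 with ACs and 14094 to 15308 with IL-4. The part of these differences in the results was not tested. The 10 thymocyte markers summed to at most 178. The 8 markers of peritoneal macrophages also moved with the groups: their sum was 11708 to 15125 with ACs alone, 4601 to 5898 with E. coli, 16164 to 24161 with IFN-γ and 4799 to 5344 with both stimuli, and in the IL-4 experiment 17605 to 26378 with ACs and 14401 to 24538 with IL-4. None of these 8 was at 0 in any group. With ACs alone in either experiment and with IFN-γ, the lowest macrophage sum was above the highest eosinophil sum. It was the other way with E. coli and with both stimuli, and with IL-4 the ranges overlapped. The sums of both lists are over different genes, so their order does not give the proportion of cells. The study reports high eosinophil purity and viability by flow cytometry after the selection with beads. How much of the level of each member came from macrophages was not tested. As a check of the IL-4 stimulus, Retnla, a known target of IL-4, rose with IL-4 (log2 change 0.73 ± 0.12 SE). Retnla was taken from a list of 10 control genes for all the stimuli. Of these 9 were tested with IL-4, where 1 was called higher and 8 were not called. In such bulk samples a lower number of cells of a type and less RNA per cell cannot be told apart.

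Expression of the family was concentrated in few members. No read was found for 9 members, 18 more had between 1 and 25 reads over all 18 libraries, and 30 were read in every library. The counts come from transcript 3′ ends, so they do not scale with transcript length, and levels are given as normalized counts (reads divided by the library's size factor). Only 16 members had a mean above 100 normalized counts and 6 above 500. The 5 highest were Trim30a (mean 1517), a brake on Toll-like receptor signalling that targets TAB2 and TAB3, Trim25 (1225), which ubiquitinates the RNA sensor RIG-I, and the poorly characterised Trim34a, Trim12a and Trim30b. These 5 held 55.2% of the 154740 reads of the family. A cluster of 10 members within 289 kb of chromosome 7 (chr7:104218793-104507849, GRCm38), the Trim5 locus, held 49.7% of the reads of the family. The 7 COS box members, which are known for microtubules and striated muscle, were too low to be tested in either experiment.

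**Figure D1:**
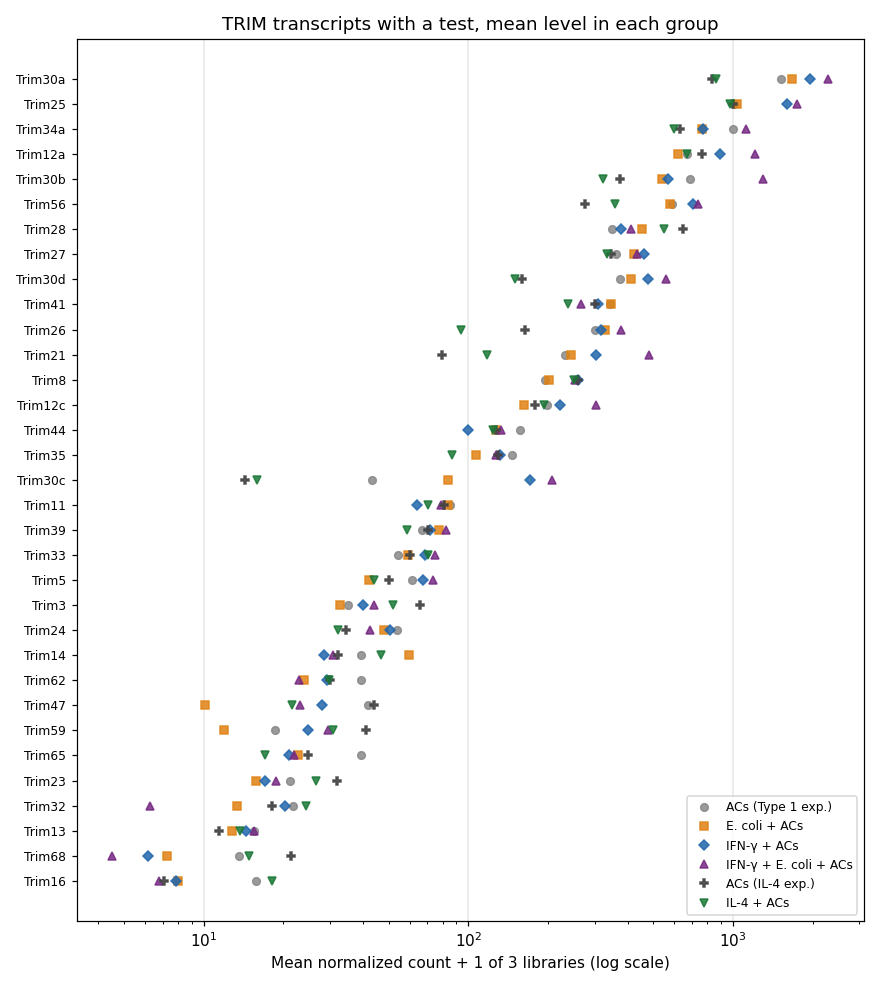
Mean normalized count + 1 of each tested member (log axis, 3 libraries per point) in the 6 groups, ordered by the mean over all 18 libraries. Trim30a (mean 1517) and Trim25 (mean 1225) lead in the family, and the purple triangles of IFN-γ + E. coli + ACs lie farthest right for Trim30a, Trim25, Trim12a, Trim30b, Trim21 and Trim30c.

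As a whole, the summed level of the 68 members was 8643 to 8955 normalized counts with ACs alone and 8485 to 8742 with E. coli, so these groups overlapped. With IFN-γ the sum was 9595 to 10895, and with both stimuli it was 12286 to 12645, each above every library with ACs alone. As a share of the library's normalized counts the sums were 0.219% to 0.234% with ACs, 0.203% to 0.211% with E. coli, 0.208% to 0.239% with IFN-γ and 0.262% to 0.275% with both stimuli. On this scale the IFN-γ libraries overlapped those with ACs alone, the E. coli libraries were below them and the libraries with both stimuli above. In the IL-4 experiment the sums were 6204 to 7554 with ACs and 6434 to 6645 with IL-4, and the groups overlapped.

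A change was called when the adjusted p of limma (Benjamini-Hochberg over all genes tested) was under 0.05 and the change on the log2(normalized count + 1) scale was at least 1.5-fold. Genes were tested if their mean was at least 10 normalized counts, which 31 members passed in the Type 1 experiment and 33 in that with IL-4. The 3 comparisons of the Type 1 experiment with ACs share the same 3 ACs libraries.

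The study asked how apoptotic cells shape eosinophils activated with bacteria and IFN-γ, and E. coli alone gave few changes in the family. Of 31 tested members 1 rose (Trim30c) and 1 fell (Trim47), where 5.05% of all 10166 genes rose and 5.25% fell. The median log2 change of the members was -0.10, against -0.00 for all genes. Groups did not overlap for 11 of the 31 members, against 38.3% of all genes.

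Trim30c, a relative of Trim30a of unknown function (chr7:104382065-104400837, minus strand), was at 46.4, 36.6 and 44.0 normalized counts in the 3 libraries with ACs alone and at 79.5, 81.8 and 88.0 with E. coli. Every library with E. coli was above every library with ACs alone, and the log2 change was 0.96 (SE 0.20, limma adjusted p = 0.0022). Trim47, a RING ligase on chromosome 11 (chr11:116105752-116127210), was at 46.4, 41.3 and 34.3 with ACs alone and at 3.35, 8.99 and 14.95 with E. coli, which are 4, 11 and 17 reads. Its groups did not overlap and the log2 change was -2.22 (SE 0.49, limma adjusted p = 0.0042). The gene overlaps Trim65, a ligase for the RNA sensor MDA5, on the same strand. For Trim65 the log2 change with E. coli was -0.78 (limma adjusted p = 0.18), which did not pass. The fall of Trim47 went together with the lower macrophage marker sum in these libraries (4601 to 5898, against 11708 to 15125), and their part in the result was not tested. Trim34a (log2 change -0.39) and Trim30b (-0.35) passed the adjusted p but not the fold, and both were lower in each E. coli library than in each ACs library.

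IFN-γ alone raised 2 of 31 members (Trim30c and Trim25) and lowered 1 (Trim44), where 11.4% of all genes rose and 9.96% fell. The median log2 change of the members was 0.10, against -0.00 for all genes, and 14 of the 31 did not overlap between the groups, against 42.9% of all genes.

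In the IFN-γ libraries Trim30c was at 138.5, 159.3 and 211.4 normalized counts, all above the highest E. coli library. The log2 change from ACs was 1.96 (SE 0.20, limma adjusted p = 3.3e-07), which is 3.90-fold. Trim25 (chr11:88999376-89020293, plus strand) was at 881, 1198 and 949 with ACs alone and at 1583, 1515 and 1707 with IFN-γ. Its groups did not overlap, with a log2 change of 0.68 (SE 0.12, limma adjusted p = 0.00024). This call was lost without ACs replicate 1, the lowest of the 3. The macrophage marker sum was higher in the IFN-γ libraries than with ACs alone (16164 to 24161, against 11708 to 15125). Its part in the rises of Trim30c and Trim25 was not tested.

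Trim44, a member without a RING domain that is known to remove ubiquitin (chr2:102300119-102407828), was at 126, 161 and 178 normalized counts with ACs alone and at 75.2, 125 and 96.5 with IFN-γ. The highest IFN-γ library lay just under the lowest ACs library, and the log2 change was -0.66 (SE 0.20, limma adjusted p = 0.021). Without ACs replicate 2, ACs replicate 3 or IFN-γ replicate 1 the call was lost. A processed pseudogene on the same strand (Gm13868, mean 12.9) overlaps Trim44. Members past the adjusted p but short of the fold were Trim12a (log2 change 0.43), Trim21 (0.39) and Trim30a (0.35), which were higher, and Trim34a (-0.38), which was lower.

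IFN-γ followed by E. coli gave the most calls in the family. Of 31 members 7 rose and 1 fell, where 14.7% of all genes rose and 17.2% fell. The 7 were Trim30c, Trim21, Trim30b, Trim12a, Trim25, Trim12c and Trim30d, of which 5 belong to the Trim5 locus cluster and Trim21 lies on the same chromosome. The median log2 change of the members was 0.25, against -0.05 for all genes. Groups did not overlap for 17 of the 31 members, 12 of them higher with both stimuli, against 48.8% and 23.9% of all genes.

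Within the cluster, Trim30c was highest with both stimuli, at 172.5, 217.4 and 229.0 normalized counts. This was 4.77-fold the level with ACs alone (log2 change 2.25, SE 0.20, limma adjusted p = 3.2e-08), although the range overlapped that of the IFN-γ libraries. Trim30b (chr7:104355382-104369884, minus strand) was at 675, 666 and 712 with ACs alone and at 1284, 1312 and 1273 with both stimuli. The libraries with both stimuli stood far from all others of the experiment, since with E. coli Trim30b was at 526, 526 and 565 and with IFN-γ at 551, 561 and 583. Against ACs the log2 change of Trim30b was 0.91 (SE 0.10, limma adjusted p = 1.1e-06).

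Trim12a and Trim12c are mouse relatives of the retroviral restriction factor TRIM5. Trim12a (chr7:104299894-104315466) was at 651, 614 and 732 normalized counts with ACs alone, at 839, 961 and 884 with IFN-γ and at 1157, 1352 and 1108 with both stimuli. The 3 groups followed each other without overlap, and the log2 change with both stimuli was 0.85 (SE 0.12, limma adjusted p = 1.2e-05). Trim12c (chr7:104338754-104353362) was at 138, 214 and 237 with ACs alone and at 299, 313 and 293 with both stimuli, without overlap (log2 change 0.65, SE 0.17, limma adjusted p = 0.0059). The low ACs replicate 1 of Trim12c mattered, and without it the call was lost. At the transcript 3′ end, where the reads lie, 10.9% of the 50-base words of Trim12c also occur in Trim5. For Trim12a, 0% of the words occur in another gene of the cluster. The study describes counting uniquely mapped reads only, in which case reads lying wholly in shared words would be left out of both genes.

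Trim30d, known for degrading a flavivirus polymerase (chr7:104470014-104507849), was at 417, 292 and 407 normalized counts with ACs alone and at 513, 515 and 639 with both stimuli. The groups did not overlap, but the log2 change of 0.59 (SE 0.17, limma adjusted p = 0.0085) was only just past 1.5-fold. The call was lost without ACs replicate 2, without replicate 3 of both stimuli, with pseudocount 5, with upper quartile scaling and with edgeR on recovered reads, and held under 14 of 19 other settings. Trim30a, next to it, was at 1629, 1439 and 1496 with ACs alone and at 2048, 2424 and 2354 with both stimuli. With a log2 change of 0.58 (SE 0.11, limma adjusted p = 0.00034) Trim30a passed the adjusted p and fell just short of the fold. The 3′ ends of Trim30d share 16.9% of their 50-base words with another gene of the cluster, nearly all with Trim30a, and those of Trim30a share 0%.

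**Figure D2:**
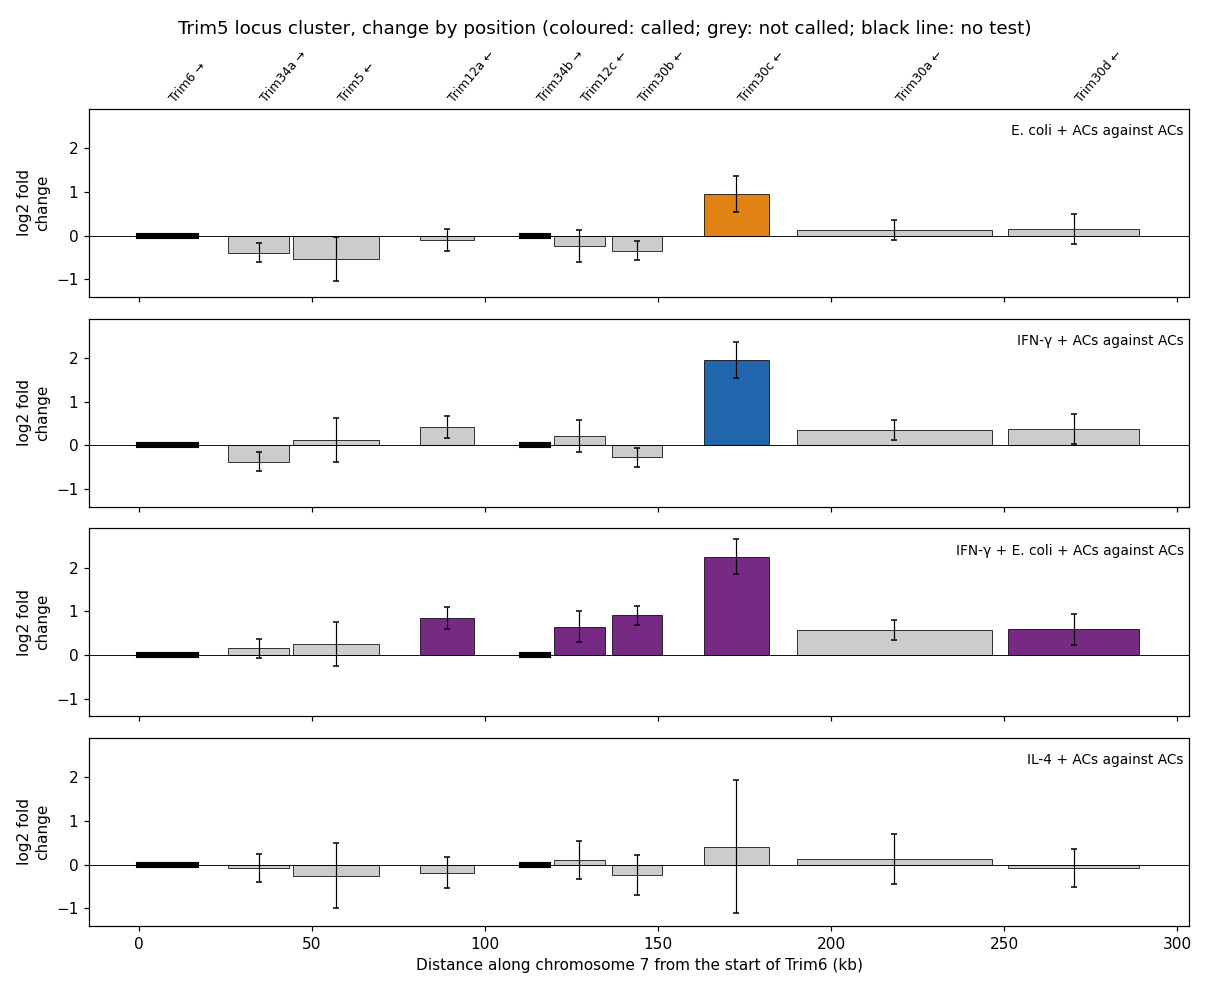
Log2 fold change (y axis, bars, with 95% intervals) of the 8 tested genes of the Trim5 locus (black lines mark Trim6 and Trim34b, which were not tested) against their position in kb from the start of Trim6 (x axis, bar width is gene length, arrows give the strand), in each stimulus against ACs. Trim30c is called with E. coli (0.96), with IFN-γ (1.96) and with both stimuli (2.25), and 4 further genes of the cluster are called only in the panel of both stimuli.

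Outside the cluster, Trim21 (chr7:102557921-102565486), a cytosolic antibody receptor and ubiquitin ligase, was at 226, 249 and 218 normalized counts with ACs alone, at 235, 235 and 261 with E. coli, at 344, 275 and 291 with IFN-γ and at 479, 414 and 545 with both stimuli. The 3 libraries with both stimuli were the highest of the experiment. The log2 change with both stimuli was 1.04 (SE 0.14, limma adjusted p = 1.0e-05), which is 2.06-fold. Trim25 was at 1812, 1643 and 1755 with both stimuli, above all ACs libraries and overlapping the IFN-γ libraries (log2 change from ACs 0.79, SE 0.12, limma adjusted p = 2.7e-05).

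Trim32, an NHL repeat ligase known for STING and for muscular dystrophy (chr4:65604986-65616238), fell with both stimuli. It was at 26.8, 23.5 and 12.2 normalized counts with ACs alone and at 4.28, 7.33 and 4.14 with both stimuli, which are 3, 6 and 3 reads. The groups did not overlap and the log2 change was -1.77 (SE 0.46, limma adjusted p = 0.0049), at a depth where 3 reads are 3.66 to 4.28 normalized counts. The macrophage marker sum was also lower than with ACs alone (4799 to 5344, against 11708 to 15125), and its part in the result was not tested. Trim47, called with E. coli alone, was at 15.7, 34.2 and 16.6 with both stimuli, each below the lowest ACs library, and did not pass (log2 change -0.93, limma adjusted p = 0.15).

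**Figure D3:**
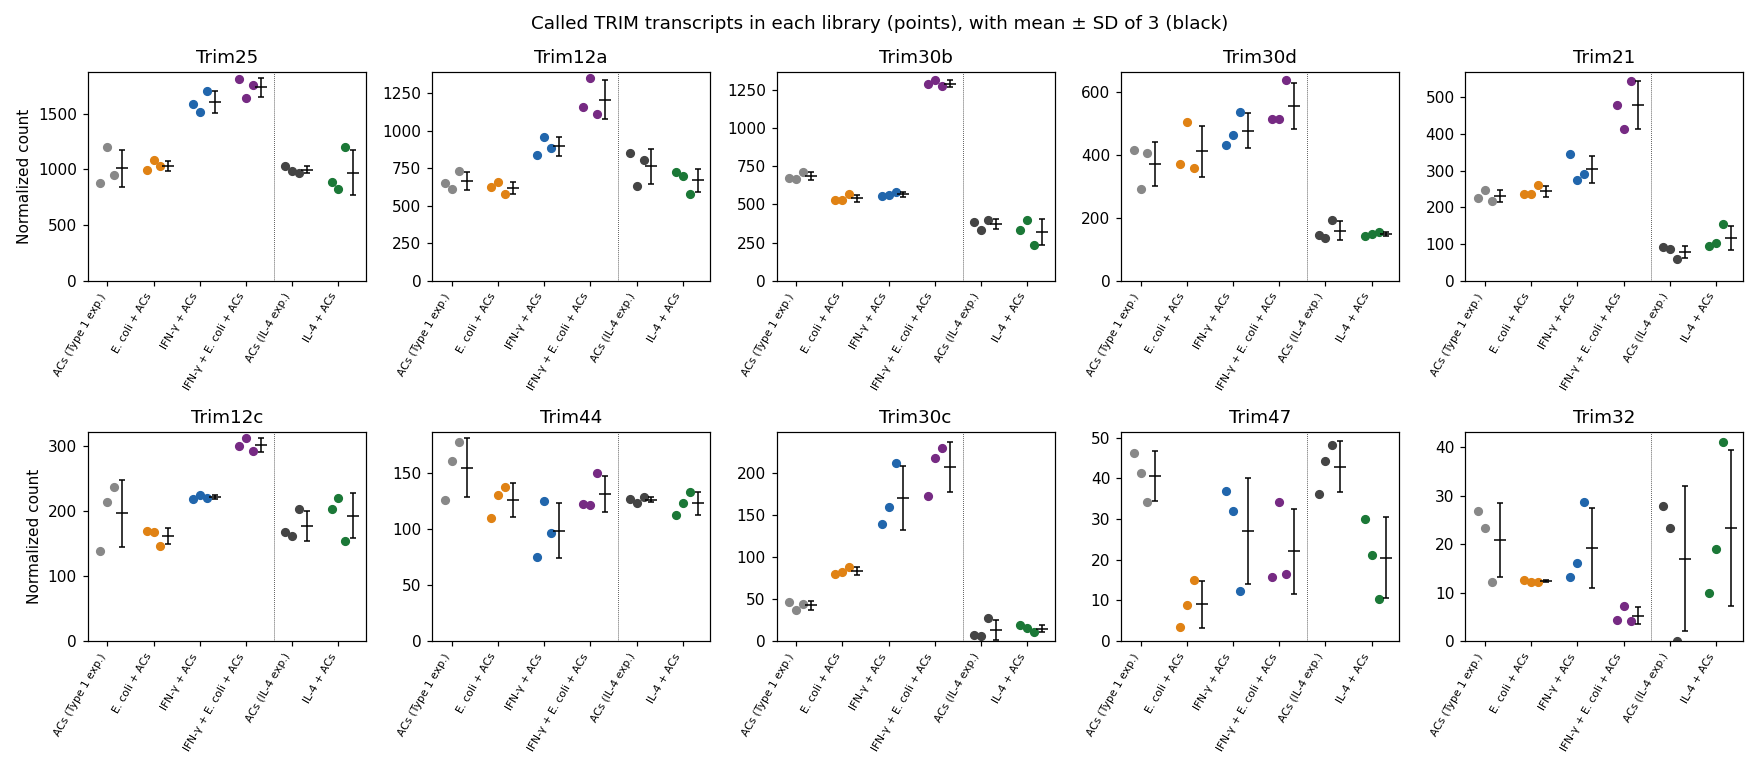
Normalized counts (y axis, linear from 0) of the 10 called members in each of the 18 libraries (points), with mean ± SD of 3 in black, and a dotted line between the experiments. The purple points (both stimuli) of Trim30b, at 1273 to 1312, stand apart from all others, and Trim30c rises from 36.6 to 46.4 with ACs alone to 172.5 to 229.0 with both stimuli.

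The members were also counted by their known roles, beside 5.05%, 11.4% and 14.7% of all genes that rose and 5.25%, 9.96% and 17.2% that fell with E. coli, IFN-γ and both stimuli. Of the 18 members known as regulators of RIG-I, cGAS-STING, NF-κB and IRF signalling, 15 were tested in the Type 1 experiment: 0 were called with E. coli, 1 rose with IFN-γ (Trim25), and with both stimuli 2 rose (Trim25 and Trim21) and 1 fell (Trim32). Their median log2 changes were -0.02, -0.11 and 0.01, against -0.00, -0.00 and -0.05 for all genes. The chromatin co-regulators with PHD finger and bromodomain had 3 tested members, Trim28, Trim33 and Trim24, and none was called in any of the 4 comparisons with ACs. Trim28, the KAP1 co-repressor, had a log2 change of 0.10 with IFN-γ (95% interval -0.24 to 0.44) and of 0.22 with both stimuli (-0.11 to 0.56). Of the 2 tested NHL repeat members, Trim32 fell with both stimuli and Trim3 was not called (log2 change 0.25). Against ACs alone, 0 of the 2 tested members near the MHC locus and 0 of the 3 tested members with transmembrane, MATH, ARF or filamin domains were called. Of the 8 tested genes of the Trim5 locus, 1 rose with E. coli, 1 with IFN-γ and 5 with both stimuli, with median log2 changes of -0.17, 0.28 and 0.62, against the same medians of all genes.

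**Figure D4:**
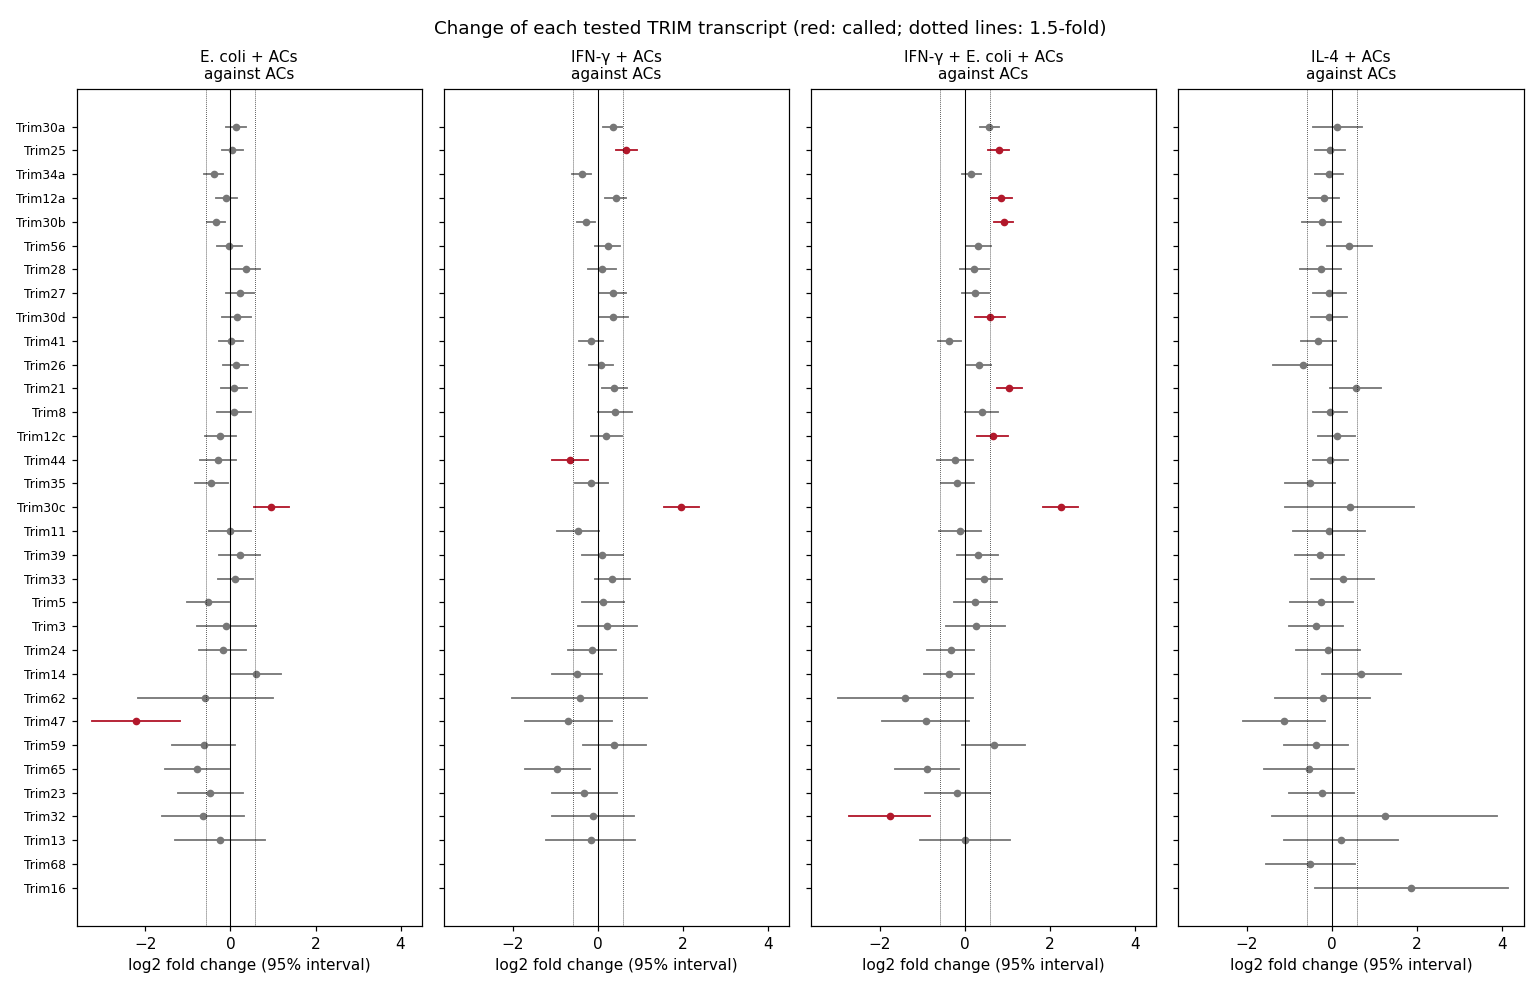
Log2 fold change (x axis, points, with 95% intervals as lines) of every tested member in each stimulus against the ACs of its own experiment, ordered by mean level, with called members in red and 1.5-fold as dotted lines. The panel of both stimuli has 7 red points to the right and Trim32 (-1.77) to the left, and the IL-4 panel has none.

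What E. coli added to IFN-γ was tested directly. Against IFN-γ + ACs, both stimuli raised 2 of 31 members, Trim30b and Trim21, and lowered Trim32, where 5.96% of all genes rose and 8.61% fell. Trim30b was 2.28-fold higher (log2 change 1.19, SE 0.10, limma adjusted p = 3.8e-07) and Trim21 was 1.57-fold higher (0.65, SE 0.14, limma adjusted p = 0.0029). Trim32 was lower by a log2 change of -1.66 (SE 0.46, limma adjusted p = 0.015), from 13.2, 16.1 and 28.7 normalized counts with IFN-γ. The Trim32 call was lost without IFN-γ replicate 3 and the Trim21 call without replicate 3 of both stimuli. For Trim30c the difference was within the spread between libraries.

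The interaction on the log2 scale (the IFN-γ effect with E. coli minus the IFN-γ effect without it) was called for 2 of 31 members, where 7.44% of all genes were called. For Trim30b it was 1.54 (SE 0.15, limma adjusted p = 3.8e-06). E. coli and IFN-γ each came with values of Trim30b below those with ACs alone, while both stimuli together came with higher ones. Trim34a, a neighbour in the cluster, showed the same order on a smaller scale: it was at 987, 997 and 1016 normalized counts with ACs alone, 734, 788 and 769 with E. coli, 795, 765 and 753 with IFN-γ, and 1163, 998 and 1178 with both stimuli. Every library with a single stimulus was below every ACs library, and the libraries with both stimuli overlapped those with ACs alone. Its interaction was 0.91 (SE 0.15, limma adjusted p = 0.00090). At the 3′ end 22.2% of the 50-base words of Trim34a occur in Trim34b, and 0% of those of Trim30b occur elsewhere in the cluster. Trim34b had 4 reads in all. Of its own words 51.5% occur in Trim34a, so these reads may understate its level if only uniquely mapped reads were counted. Trim30c had an interaction of -0.67 (limma adjusted p = 0.15), which did not pass.

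**Figure D5:**
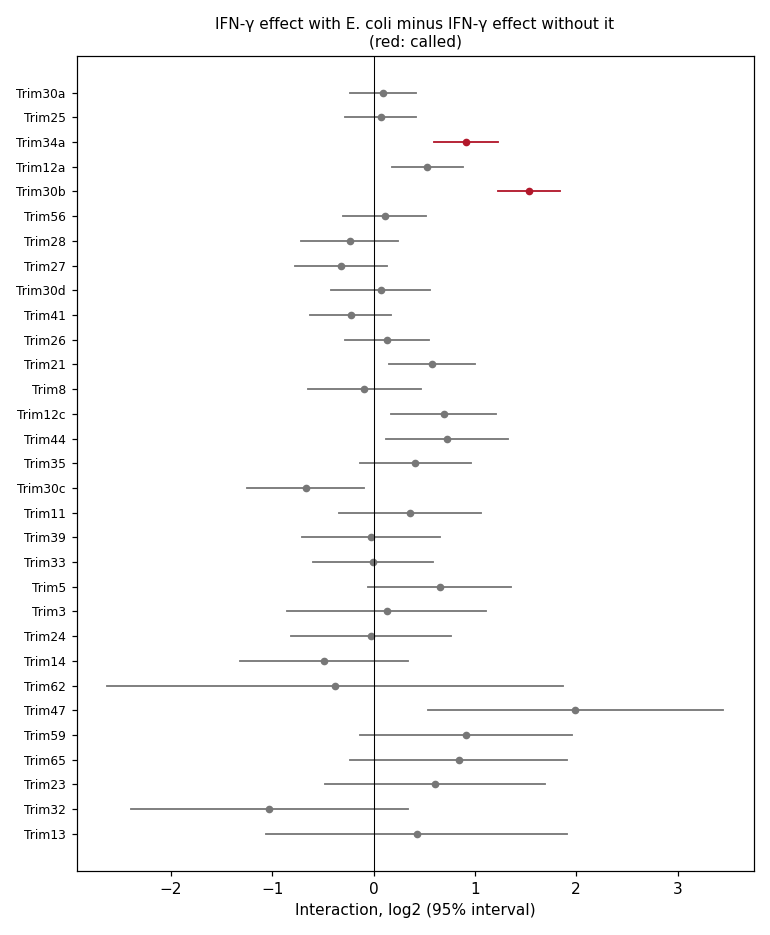
Interaction on the log2 scale (x axis, points, with 95% intervals as lines) for the 31 tested members in order of mean level, where 0 means that the effects of IFN-γ and E. coli add up. Trim30b (1.54) and Trim34a (0.91) are called, in red.

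Between the single stimuli, 5 of 31 members differed: 4 were higher with IFN-γ than with E. coli and 1 was lower, where 9.84% of all genes were higher and 6.72% lower. Trim30c (log2 difference 1.00, limma adjusted p = 0.00094) and Trim25 (0.63, limma adjusted p = 0.00060) were higher with IFN-γ, the latter not without IFN-γ replicate 3. Trim47 was also higher (1.53, limma adjusted p = 0.032), although its libraries overlapped, at 36.9, 32.1 and 12.3 normalized counts with IFN-γ, and the call held under 12 of 19 other settings and was lost, among others, without replicate 1 or 2 of either group. Trim14 and Trim59 were called in no comparison with ACs and are named here after their values were seen. Trim14, an adaptor at MAVS that also stabilises cGAS, was at 29.0, 20.6 and 32.8 with IFN-γ and at 52.7, 68.7 and 54.5 with E. coli, without overlap (log2 difference -1.08, SE 0.28, limma adjusted p = 0.0086). It overlaps Nans (mean 53.8) on the opposite strand, and whether the counting used strand is not given in the sources used here. Without E. coli replicate 2 the call was lost. Trim59, a transmembrane member, was at 25.1, 29.8 and 16.4 with IFN-γ and at 10.1, 12.3 and 10.6 with E. coli (1.02, SE 0.35, limma adjusted p = 0.048), but was called under only 4 of 19 other settings.

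IL-4, the Type 2 stimulus, gave 0 calls among 33 tested members with limma, where 0.740% of all 10669 genes rose and 0.347% fell. At an unadjusted p under 0.05 limma had 1 member (Trim47; 9.65% of all genes), edgeR had 3 and DESeq2 had 1, and neither edgeR nor DESeq2 called any. The median log2 change was -0.08, against -0.01 for all genes, and 6 of the 33 did not overlap between the groups, against 17.3% of all genes. Trim47 was at 36.1, 44.4 and 48.3 normalized counts with ACs and at 30.1, 21.1 and 10.3 with IL-4 (log2 change -1.14, 95% interval -2.10 to -0.18, limma adjusted p = 0.43). Its groups did not overlap, but the lowest value rests on 2 reads of a shallow library.

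Members called in the Type 1 experiment had wide or narrow intervals with IL-4 according to their level. Trim25 was at 1032, 986 and 970 with ACs and at 884, 826 and 1203 with IL-4, with a log2 change of -0.06 (95% interval -0.41 to 0.29). Trim30c was far lower in this experiment, at 6.77, 6.23 and 26.8 with ACs and at 18.5, 15.8 and 10.3 with IL-4, so that its change of 0.42 had an interval from -1.10 to 1.93. Without both shallow libraries, a setting chosen after seeing the data, the log2 change of Trim30c was 1.27 (limma adjusted p = 0.095), which did not pass. Trim56, which acts on STING and Toll-like receptor signalling, was at 251, 199 and 375 with ACs and at 375, 408 and 288 with IL-4, where the shallow replicates 3 ran against the others. Without them Trim56 was called higher (log2 change 0.80, limma adjusted p = 0.0048), where 3.25% of all genes rose. The IL-4 effect minus the IFN-γ effect, each within its own experiment, was called for 2 of 32 members, where 14.3% of all genes were called. These were Trim25 (-0.73, SE 0.19, limma adjusted p = 0.010) and Trim12a (-0.61, SE 0.19, limma adjusted p = 0.031). The Trim12a call held under only 15 of 26 other settings, with log2 differences from -0.74 to -0.18, and was lost with edgeR and with DESeq2 on recovered reads and without 6 of the single libraries. The difference of Trim30c was -1.55 (limma adjusted p = 0.052).

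The scaling of the libraries bears on these counts. Scaling by the upper quartile moved the median log2 change of all genes by -0.26 with IFN-γ, by -0.30 with both stimuli and by 0.16 with IL-4. Under it IFN-γ gave 1 higher member (Trim30c) and 4 lower (Trim11, Trim34a, Trim44 and Trim65), where 6.73% of all genes rose and 19.0% fell, and both stimuli gave 3 higher (Trim30c, Trim30b and Trim21) and 3 lower (Trim32, Trim41 and Trim65), where 8.23% rose and 28.1% fell. The median change of the members turned from 0.10 to -0.17 with IFN-γ, from 0.25 to -0.05 with both stimuli and from -0.08 to 0.09 with IL-4, while every called member kept its own direction. This quartile was taken over the counts above 0 of each library, a set that can change with depth, and depth differed between libraries. The part of depth was not tested. With edgeR and DESeq2 on recovered reads the median of all genes was -0.011 and -0.0013 with IFN-γ and -0.029 and -0.019 with both stimuli.

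The partners through which TRIM proteins act were measured as well, from a list of 24 sensors, adaptors and partners, all tested. With E. coli 1 rose and 1 fell, with IFN-γ 4 rose and 3 fell, and with both stimuli 6 rose and 2 fell, while IL-4 gave 0 calls. Of all genes 5.05% rose and 5.25% fell with E. coli, 11.4% and 9.96% with IFN-γ, 14.7% and 17.2% with both stimuli, and 0.740% and 0.347% with IL-4. Isg15, the ubiquitin-like protein, had log2 changes of 1.01, 1.39 and 1.07 with E. coli, IFN-γ and both stimuli. Tbk1, the kinase that Trim proteins feed into on the way to interferon, rose with IFN-γ (0.93) and with both stimuli (1.08), and so did Ikbkg, the NEMO subunit of the IKK complex (1.37 and 1.503). Tab2, a target of Trim30a, rose with both stimuli (0.81). Tmem173, which encodes STING, fell in all 3 comparisons (-0.99, -0.82 and -0.91), and Setdb1, the histone methyltransferase that Trim28 recruits, fell with IFN-γ (-1.08) and with both stimuli (-0.91). Of the 4 tested tripartite proteins without a Trim symbol, Mefv, which encodes pyrin, rose with IFN-γ (log2 change 1.54) and both stimuli (1.79), and Pml, the scaffold of nuclear bodies, rose with both stimuli (0.65). These partners stand in the same libraries as the macrophage marker differences given above, and the part of those in the result was not tested.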

How the data were processed

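CEL-Seq2 libraries (3′ end counting) of 18 eosinophil samples were analysed. The deposited signal values are counts per gene that the authors divided by DESeq2 size factors. The submitters' processing notes name cutadapt 1.10, TopHat2 2.1.0, Bowtie2 2.2.6, HTSeq 0.6.1, DESeq2 1.26.0 and build GRCm38, but the study also describes another aligner, and which produced the table is not given in the sources used here. Whole reads were recovered for 100% of values (within 0.1 read), and library totals were 779421 to 7782072 reads.

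Tests used limma 3.58.1 (R 4.3.3) with a mean-variance trend on log2(normalized count + 1), for genes with a mean of at least 10, over 12, 6 or 18 libraries. No other columns were present. The experiment of each ACs library was taken from the naming of its description. Alternatives were a pseudocount of 5, no filter, a mean of at least 50, a replicate block, upper quartile scaling, edgeR 4.0.16 and DESeq2 1.42.0 on recovered reads, and leaving out libraries. The limma fit of each comparison was tested on simulated data, as were edgeR and DESeq2 for both stimuli and for IL-4 against ACs. The other settings were not simulated. Each simulation changed 200 genes by 4-fold, of which 94.5% to 100% were recovered, with 2 to 20 false calls. The changed genes were drawn only above a higher mean than the tests required, with a fixed dispersion for all genes. Trim32 (Type 1 mean 14.4), Trim47 (24.7) and Trim59 (20.2) lay below that mean in the Type 1 experiment, so the recovery does not cover their calls there. Smaller changes, such as 1.5-fold, were not simulated. Values per library are given for every member called against ACs and values for the 5 highest members. Members and gene lists were chosen with earlier results of these data known. Replicate pairs differed beyond sampling noise (chi-square per degree of freedom 3.92 to 13.2). Gene names came from GENCODE M21 for 54409 of 54446 identifiers.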

Additional observations from a re-analysis of the deposited data

Results flagged for a closer look

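The IFN-γ effect differed between cells with and without E. coli for Trim30b and Trim34a, by the interaction term of limma. For Trim30b the difference was 1.54 on the log2 scale (SE 0.15, adjusted p = 3.8e-06), and for Trim34a it was 0.91 (SE 0.15, adjusted p = 0.00090). With IFN-γ alone Trim30b stood at 565 ± 16.2 normalized counts (SD, n = 3) and with both stimuli at 1290 ± 19.8. Both members were called under all 19 other settings.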

How the results depend on the processing

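No direction of a named member that was called turned under any alternative. With pseudocount 5, 2 members were lower with IFN-γ (against 1) and 2 with both stimuli (against 1). Of all 10166 genes 1063 and 1766 were lower there, against 1013 and 1746. Without the filter, 3 were lower with both stimuli, 3 differed between IFN-γ and E. coli (against 5) and 1 between the IL-4 and IFN-γ effects (against 2). Of all 21845 genes then tested 1889 were lower with both stimuli, against 1746 of 10166. Between IFN-γ and E. coli 940 were higher and 668 lower, against 1000 and 683. Between IL-4 and IFN-γ it was 473 and 659 of 27840, against 643 and 843 of 10414. With a mean of at least 50, where Trim47 and Trim32 were not tested, 0 were lower with E. coli and 0 with both stimuli (against 1 each), and 2 differed between IFN-γ and E. coli. Of all 6747 genes then tested 387 were lower with E. coli and 963 with both stimuli. Between IFN-γ and E. coli 793 were higher and 545 lower. Upper quartile scaling gave 1 higher and 4 lower with IFN-γ (against 2 and 1), 3 higher and 3 lower with both stimuli (against 7 and 1), 2 between IFN-γ and E. coli and 0 between IL-4 and IFN-γ. Of all 10196 genes 686 rose and 1933 fell with IFN-γ, and 839 rose and 2863 fell with both stimuli. Between IFN-γ and E. coli 678 were higher and 1242 lower, and between IL-4 and IFN-γ 474 and 219 of 10504. On recovered reads edgeR gave 2 lower with IFN-γ and 1 between IL-4 and IFN-γ, and DESeq2 gave 4 interactions (against 2) and 1 between IL-4 and IFN-γ. Of all 10166 genes edgeR had 1098 lower with IFN-γ. DESeq2 had 485 higher and 507 lower interactions, against 321 and 435. Between IL-4 and IFN-γ, of 10414 genes, edgeR had 766 higher and 938 lower and DESeq2 746 and 963. Without both shallow IL-4 libraries, a setting chosen after seeing the data, 1 member was higher with IL-4 (against 0) and 1 differed between IL-4 and IFN-γ. Of all genes 345 of 10629 were higher with IL-4, against 79 of 10669. Between IL-4 and IFN-γ 667 were higher and 948 lower of 10365. Apart from fewer members tested, the cause was not tested.

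Leaving out each library gave 1 higher and 1 lower with E. coli throughout, 1 to 2 higher and 0 to 2 lower with IFN-γ, 6 to 8 higher and 1 to 2 lower with both stimuli, 0 with IL-4 in either direction, 2 to 4 between both stimuli and IFN-γ, 2 to 5 between IFN-γ and E. coli, 2 to 3 interactions and 1 to 4 between IL-4 and IFN-γ. Of all genes, 401 to 537 rose and 352 to 614 fell with E. coli, and 1012 to 1183 and 734 to 1088 with IFN-γ. With both stimuli it was 1401 to 1604 and 1375 to 1819, and with IL-4 31 to 95 and 16 to 51. Between both stimuli and IFN-γ it was 508 to 743 and 646 to 1048, and between IFN-γ and E. coli 850 to 1030 and 527 to 748. Interactions were 161 to 444 and 239 to 582, and between IL-4 and IFN-γ 462 to 696 and 679 to 895. Where a group was left with 2 libraries the spread was pooled over the groups of the fit. Trim12a in the last comparison was called under 15 of 26 settings. A replicate block changed no count of members, but between IFN-γ and E. coli Trim59 lost its call (adjusted p = 0.064) and Trim5 gained one. Against ACs it gave 1 higher and 1 lower with E. coli, 2 and 1 with IFN-γ, 7 and 1 with both stimuli and 0 with IL-4. Of all genes it gave 508 and 539, 1161 and 1019, 1496 and 1768, and 45 and 29. Samples with the same replicate number did not deviate together (mean correlation 0.0054, from -0.089 to 0.085, over the Type 1 libraries, and 0.0095 over those of the IL-4 experiment). No sign of pairing by number was thus seen, but this cannot exclude that the numbers mark the same mouse or preparation. Depth limits Trim32, Trim47 and Trim30c in the shallow libraries.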

Other observations

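The ACs groups of both experiments were not compared by a test, and their values are given for members with large differences, chosen after their values were seen. In the Type 1 experiment Trim21 was at 231 ± 16.02 normalized counts (SD, n = 3) with ACs alone, against 78.8 ± 17.4 in that with IL-4. Trim30c was at 42.3 ± 5.09 and 13.3 ± 11.7, and Trim56 was at 588 ± 29.2 and 275 ± 90.4. Trim28 went the other way, at 349 ± 27.9 and 643 ± 54.7 normalized counts, with no overlap of the libraries. The experiment cannot be told apart from any difference in mice, culture or sequencing run.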
